A study of Schizosaccharomyces pombe with 6 samples.

Results

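The mitochondrial ribosomal protein genes of fission yeast were examined in cells treated with rapalink-1, in cells treated with rapamycin and in untreated cells. Members were the protein-coding genes whose deposited description names a mitochondrial ribosomal protein. This rule found 74 of the 7268 genes, with 26 on chromosome I, 34 on chromosome II, 14 on chromosome III and 0 on the mitochondrial chromosome. Subunits were assigned by the letter and number in the description, or else by the gene name or the budding yeast protein of the same name. This placed 45 in the large subunit and 26 in the small subunit and left 3 unassigned. RefSeq product names placed 42 in the large and 30 in the small subunit. All 3 groups were prototrophic wild-type cells of the strain 972 h-, grown in the rich medium YES with 3% glucose at 32 °C. The groups were 100 nM rapalink-1 for 5 h, 100 nM rapamycin for 5 h, and untreated cells harvested at the same time, with 2 RNA-seq libraries each. Flasks were filled from a pair of mother cultures, and the labels do not tie a replicate number to a mother culture, so p-values measured the spread between these libraries. Polyadenylated RNA was sequenced in bulk, so fewer cells with a transcript and less RNA per cell could not be told apart.

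The mitochondrial ribosome translates the few mRNAs encoded by mitochondrial DNA, most of which specify core subunits of the respiratory chain and ATP synthase. Its rRNAs come from mitochondrial DNA, whereas nearly all of its proteins are encoded in the nucleus, made by cytosolic ribosomes and imported. In fungi its large subunit is called 54S and its small subunit 37S. TOR complex 1 is a kinase that promotes growth and the making of cytosolic ribosomes. Rapamycin inhibits it through an allosteric site, and rapalink-1 joins rapamycin to an inhibitor of the kinase site in 1 molecule.

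The DNA before the genes differed between the mitochondrial and the cytosolic ribosome. The HomolD box (CAGTCACA), a promoter element known from fission yeast ribosomal protein genes, was searched on both strands in the 250 bases before each RefSeq gene start of ASM294v3. It was found before 0 of the 74 members, 84 of the 131 cytosolic ribosomal protein genes (64.1%) and 2.62% of 5112 protein-coding genes. The core of the HomolE box (CCCTACCC), which often accompanies HomolD, stood before 2 members (2.7%), 47 cytosolic ribosomal protein genes (35.9%) and 1.55% of all. The 2 members were mrp51 and ymr31, chosen after their values were seen. AAATTTT, known before mitochondrial ribosomal protein genes of other yeasts, stood before 21 members (28.4%) and 26.9% of all protein-coding genes, so members did not stand out in this count. GATAAG, the core site of GATA factors, stood before 6 members (8.11%) and 10.2% of all. Below are the first 230 of these 250 bases for a member with higher levels after rapalink-1 (tam9), for 2 with lower levels (rsm18 and SPAC3A12.19), and for rps2, which encodes the cytosolic protein uS5. Capitals mark HomolD, the HomolE core, AAATTTT or GATAAG on either strand.
tam9 (chrII:2144777-2145006, plus strand): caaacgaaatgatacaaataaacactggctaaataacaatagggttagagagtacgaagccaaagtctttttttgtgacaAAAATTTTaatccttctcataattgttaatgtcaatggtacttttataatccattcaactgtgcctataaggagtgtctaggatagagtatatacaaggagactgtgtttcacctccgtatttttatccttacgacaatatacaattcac
rsm18 (chrIII:725740-725969, plus strand): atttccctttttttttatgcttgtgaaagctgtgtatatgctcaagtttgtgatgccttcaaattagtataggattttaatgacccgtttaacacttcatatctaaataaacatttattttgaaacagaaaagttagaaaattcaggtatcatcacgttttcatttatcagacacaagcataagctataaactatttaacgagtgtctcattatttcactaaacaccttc
SPAC3A12.19 (chrI:1433419-1433648, minus strand): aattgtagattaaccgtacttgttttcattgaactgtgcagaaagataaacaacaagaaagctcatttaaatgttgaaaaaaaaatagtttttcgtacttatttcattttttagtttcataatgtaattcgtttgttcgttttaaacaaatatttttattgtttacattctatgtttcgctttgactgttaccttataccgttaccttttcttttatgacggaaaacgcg
rps2 (chrIII:2096057-2096286, minus strand): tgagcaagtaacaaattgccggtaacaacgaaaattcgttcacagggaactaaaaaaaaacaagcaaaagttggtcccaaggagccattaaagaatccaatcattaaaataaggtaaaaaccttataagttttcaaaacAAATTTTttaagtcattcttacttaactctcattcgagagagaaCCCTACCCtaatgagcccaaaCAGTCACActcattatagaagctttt
The window of tam9 held AAATTTT on both strands in 1 overlapping stretch, whereas the 250 bases before rsm18 and SPAC3A12.19 held no match to any of the 4 motifs. In rps2, HomolD stood at position -46 and the HomolE core at -67 from the start. A match of letters was taken only as a description.

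Some members could not be followed, since the files held almost no reads for them. The deposited unit was FPKM, in which fragments are scaled by library size and by the length of each gene. Of the 74 members, 64 had a mean of at least 1 FPKM over the 6 libraries and were tested. The other 10 were cox1101, mrpl22, img2, mrp20, mrp2, mrp4, ymr31, bot1, mrp15 and mrpl4, and no library held more than 9 reads for any of them. For 7 of the 10 every library was listed at 0. These 10 gene models were overlapped by other gene models over 83.8% to 100% of their span, in each case at least 83.8% by a model on the opposite strand. The tested members were overlapped over a median of 7.22% of their span, and 16 of them not at all. The same held beyond the members: of 654 protein-coding genes overlapped over at least 90%, 620 (94.8%) had a mean under 1 FPKM, against 4.36% of the other protein-coding genes. The share of members under 1 FPKM (13.5%) was close to that of all 5145 protein-coding genes (15.9%). The values at 0 were therefore not read as genes that were off. One of the 10, cox1101, also has a near-identical copy, cox1102, with 99.9% identity over 2338 bases, so the values of both are uncertain. Both encode fusions of the cytochrome c oxidase assembly factor Cox11 with a small-subunit protein.

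**Figure D1:**
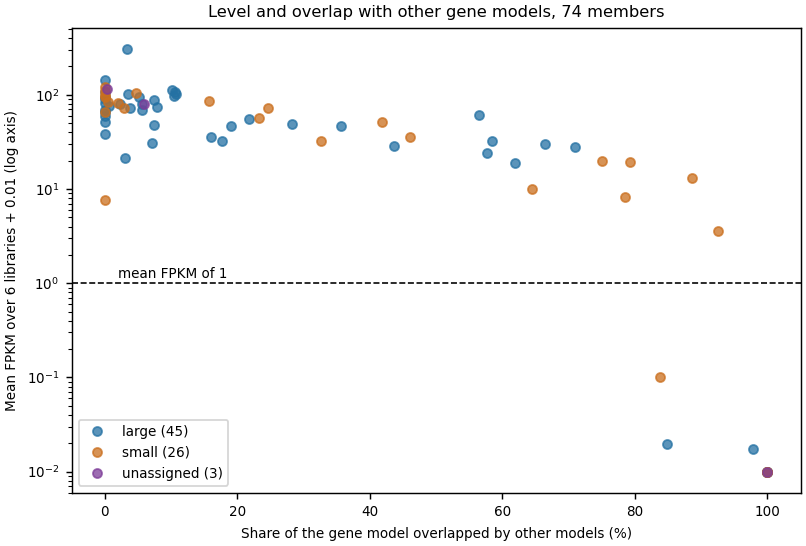
Mean FPKM over the 6 libraries plus 0.01 (log axis) against the share of the gene model overlapped by other models (%), 1 point per member, coloured by subunit. The 10 members below the dashed line at 1 FPKM all lie at 83.8% overlap or more, and the 7 listed at 0 in every library coincide at the lower right.

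Among the 64 tested members, levels were moderate and evenly spread, with a median of 67.5 FPKM and quartiles at 32.6 and 91.2 FPKM. Of these, 46 had a mean between 30 and 110 FPKM. Reads per member and library had a median of 1358 and were never under 158. The median SD between replicate libraries was 2.61% of the mean with rapalink-1, 2.08% with rapamycin and 2.02% in untreated cells. Among the highest were tam9 (L36, named bL31m by RefSeq) with a mean of 145 FPKM and rsm18 (bS18m) with 121 FPKM, whose untreated libraries overlapped. The lowest tested members were named after their values were seen. The lowest was SPCC1795.07 (uS13m), with 3.68 and 3.36 FPKM with rapalink-1, 3.3 and 3.52 FPKM with rapamycin, and 3.65 and 3.85 FPKM in untreated cells. Its model was overlapped over 92.6%. Next lowest was cox1102, with 7.26 and 8.52 FPKM with rapalink-1, 8.2 and 6.77 FPKM with rapamycin, and 7.66 and 7.68 FPKM in untreated cells. The libraries of cox1102 overlapped in every comparison. In the untreated order, 40 of the 63 neighbouring pairs had overlapping libraries, so the order was firm only over larger steps. The order changed little with treatment, with a Spearman correlation across the 64 genes of 0.980 between rapalink-1 and untreated means and 0.992 between rapamycin and untreated means (a description, since genes are not replicates).

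Large and small subunit genes had similar median levels. The large subunit medians were 66.7 and 65.5 FPKM with rapalink-1, 65.5 and 65.1 FPKM with rapamycin, and 67.7 and 69.2 FPKM in untreated cells (40 genes). The small subunit medians were 60.5 and 62.2 FPKM, 60.2 and 58.7 FPKM, and 65.7 and 62 FPKM in the same order of conditions (22 genes). The ratio of the large to the small median lay between 1.03 and 1.12 in the 6 libraries, with no separation of the conditions. The geometric means lay further apart, at 62 and 62 FPKM for the large subunit and 40.6 and 40.3 FPKM for the small subunit in untreated cells. Of the tested members with a mean under 20 FPKM, 7 belonged to the small subunit and 1 to the large subunit. The 12 tested members overlapped over more than 50% had a median of 19.6 FPKM, against 80 FPKM for the 35 overlapped over at most 10%. Among those 35, the large subunit median was 76.5 FPKM and the small subunit median 89.3 FPKM, so the order of the medians turned without the more overlapped genes. The order of the geometric means did not turn. For these genes in untreated cells they were 75.4 and 75.9 FPKM for the large subunit and 72.7 and 72.4 FPKM for the small subunit.

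**Figure D2:**
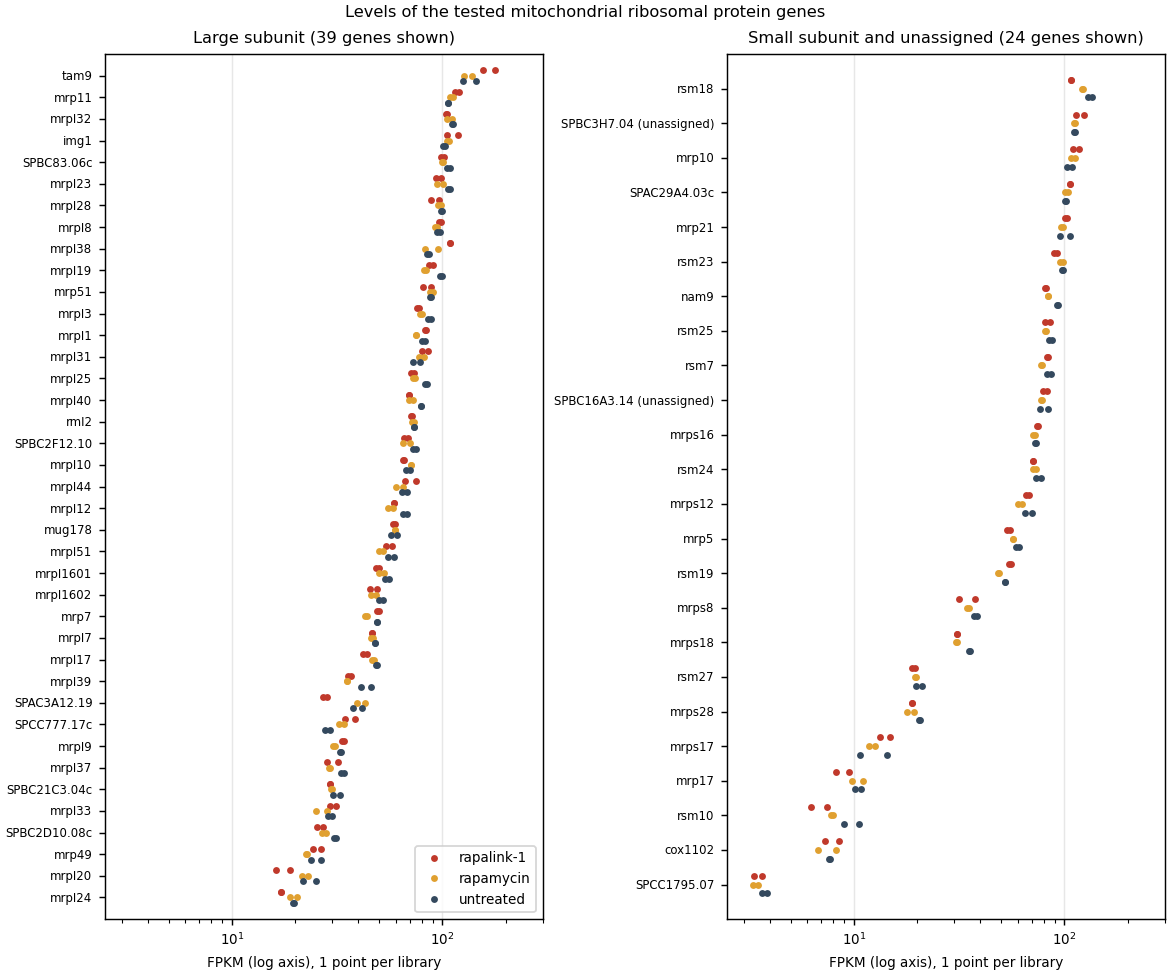
FPKM (log axis) of 63 of the 64 tested members in each of the 6 libraries, sorted by mean, with the large subunit on the left and the small subunit with the 2 unassigned members on the right. Values run between 3.3 FPKM (SPCC1795.07) and 178 FPKM (tam9), and for most genes the 3 conditions lie close together.

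Rapalink-1 lowered a part of the mitochondrial ribosomal protein genes and raised few, by small amounts. In limma on log2(FPKM + 1), with an adjusted p of at most 0.05 over all 4847 genes tested, 19 of the 64 members fell (29.7%), 4 rose (6.25%) and 41 did not pass. Over all genes tested, 23.1% fell, 24.3% rose and 47.4% passed in either direction, beside 35.9% of the members. The median log2 fold change was -0.078 for the members and -0.012 for all genes, and 57 of the 64 members stayed within 1.2-fold of untreated cells. Per library, the median difference from the untreated mean was -0.07 and -0.076 with rapalink-1, and 0.0019 and -0.0019 in untreated cells. With DESeq2 on recovered reads 10 of the 64 members fell and 3 rose, against 909 lower and 1011 higher of all 4847 genes. With quantile normalization 29 members fell and 3 rose. The quantile scaling moved all genes as well, to 943 higher and 1488 lower against 1176 higher and 1122 lower, and to a median of -0.066.

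The members that rose with rapalink-1 belonged to the large subunit. The gene mrpl38, described as L38 (chromosome II, 3551267 to 3551891 in the deposited annotation), had 109 and 109 FPKM with rapalink-1, against 86.6 and 84.2 FPKM in untreated cells. Its log2 fold change was 0.35 (SE 0.063, limma adjusted p = 0.0022), 27.3% higher. SPCC777.17c, described as L9, had 34.6 and 38.5 FPKM, against 27.7 and 29.2 FPKM in untreated cells (log2 fold change 0.35, adjusted p = 0.00274). The libraries of the 2 conditions did not overlap for either gene. The bL31 family gene tam9 had 157 and 178 FPKM with rapalink-1, against 144 and 125 FPKM in untreated cells (log2 fold change 0.32, SE 0.08, adjusted p = 0.0116). Its untreated libraries lay further apart than those of most members. The fourth, mrp11, encodes uL10m, which anchors the stalk that binds translation factors. It had 119.9 and 115 FPKM, against 107 and 107 FPKM in untreated cells, a log2 fold change of 0.13 (adjusted p = 0.0308). Its call was lost with quantile normalization (adjusted p = 0.153), without an intensity trend (adjusted p = 0.073) and with DESeq2 (adjusted p = 0.111).

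Among the large subunit genes that fell with rapalink-1, SPAC3A12.19 changed most. It is described as L27 and lies on chromosome I at 1432773 to 1433415. It had 27.2 and 28.3 FPKM with rapalink-1, against 37.6 and 41.4 FPKM in untreated cells, while both rapamycin libraries (43 and 39.3 FPKM) lay in or above the untreated range. Its log2 fold change over untreated cells was -0.49 (SE 0.066, adjusted p = 0.000479), a change of -29%. Another model on the same strand overlapped it over 16%. The gene mrpl20 (mL58) had 16.2 and 18.8 FPKM, against 21.9 and 25.2 FPKM in untreated cells (log2 fold change -0.41, adjusted p = 0.00631). The bL33m gene mrpl39 had 35.7 and 37 FPKM with rapalink-1, against 40.9 and 45.8 FPKM in untreated cells (log2 fold change -0.25, adjusted p = 0.0106). For these 3 genes the libraries of the 2 conditions were separate.

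Small subunit genes that passed the test with rapalink-1 were 5 of 22 (22.7%), and all 5 fell. Over all genes tested, 23.1% fell and 24.3% rose. With all 6 libraries 0 small subunit genes rose by limma, edgeR or DESeq2, and 0 at an unadjusted p under 0.05. Without the first untreated library limma called mrps17 (uS17m) higher (adjusted p = 0.0288), with 14.9 and 13.3 FPKM with rapalink-1, against 14.4 and 10.7 FPKM in untreated cells. It was named after its values were seen. The bS18m gene rsm18 (chromosome III, 725979 to 726792) had 108 and 108 FPKM with rapalink-1 and 121 and 123 FPKM with rapamycin, against 135 and 129.6 FPKM in untreated cells. Its log2 fold change with rapalink-1 was -0.29 (SE 0.039, adjusted p = 0.000485), and the 3 conditions were separate and in the order rapalink-1, rapamycin, untreated. The uS10m gene rsm10 had 7.45 and 6.29 FPKM, against 8.98 and 10.6 FPKM in untreated cells (log2 fold change -0.45, adjusted p = 0.00938). It is one of the 3 lowest tested members, and its model was overlapped over 78.5% on the opposite strand.

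Several of these calls rested on single libraries. Without the second rapalink-1 library, tam9 (adjusted p = 0.0686) and rsm10 (adjusted p = 0.0531) no longer passed, and without the second untreated library the same held for tam9 (0.0676), rsm10 (0.0655), mrp11 (0.112) and mrpl39 (0.0679). Without the first rapalink-1 library, mrp11 (0.134) and mrpl39 (0.0538) were lost, and without the first untreated library mrp11 (0.104). DESeq2 also lost mrpl39 (0.0826). The calls of mrpl38, SPCC777.17c, SPAC3A12.19, mrpl20 and rsm18 held under all 17 alternatives run for them. Without the first or the second untreated library, 12 members fell in place of 19, and without the second the members that rose were 2.

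**Figure D3:**
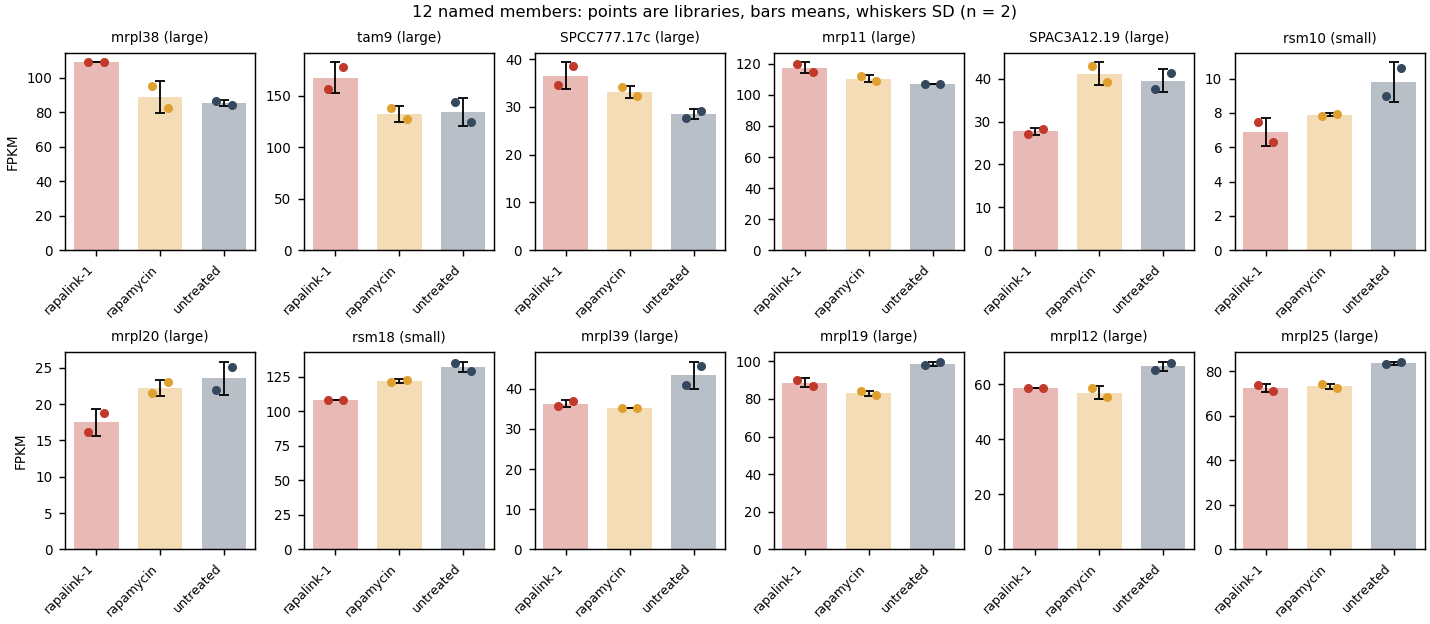
FPKM of 12 named members in rapalink-1, rapamycin and untreated cells, with points for libraries, bars for means and whiskers for the SD (n = 2). In the upper row mrpl38, tam9 and SPCC777.17c are highest with rapalink-1 and SPAC3A12.19 is lowest there, and in the lower row mrpl39, mrpl19, mrpl12 and mrpl25 lie below untreated cells with both drugs.

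Rapamycin lowered 8 members, and none passed the threshold as higher in the fit of all 4847 genes. In limma 8 of the 64 members fell (12.5%), and 0 rose, against 8.00% lower, 10.2% higher and 18.2% in either direction over all genes tested. At an unadjusted p under 0.05, 21 members were lower and 1 was higher, against 821 lower and 860 higher of all 4847 genes. Neither edgeR nor DESeq2 called any member higher. They called 7 and 2 members lower, against 413 and 331 of all genes. SPCC777.17c had 34.1 and 32.3 FPKM with rapamycin, against 27.7 and 29.2 FPKM in untreated cells (log2 fold change 0.22, adjusted p = 0.0526), and passed as higher in 5 of 17 alternatives (0.0338 to 0.0426). The median log2 fold change of the members was -0.079, against 0.00066 for all genes, with 53 of the 64 values below 0 and 62 within 1.2-fold. Per library the median difference from the untreated mean was -0.074 and -0.073 with rapamycin, beside the rapalink-1 values of -0.07 and -0.076. Both comparisons share the untreated libraries, so values for the 2 drugs are given side by side below.

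The decreases with rapamycin included genes of the stalk region. The uL11m gene mrpl19, at the base of the stalk, had 84 and 82 FPKM with rapamycin, against 98 and 99.6 FPKM in untreated cells (log2 fold change -0.25, SE 0.04, adjusted p = 0.006). The stalk protein gene mrpl12 (bL12m) had 58.6 and 55.3 FPKM, against 65.4 and 67.8 FPKM in untreated cells (log2 fold change -0.22, adjusted p = 0.0146). Its model was overlapped over 56.5%. With rapalink-1 the values were -0.16 (adjusted p = 0.0129) for mrpl19 and -0.18 (adjusted p = 0.0135) for mrpl12. Without the second untreated library neither passed there (0.0623 for mrpl19 and 0.0737 for mrpl12), and mrpl19 was also lost without the second rapalink-1 library (0.058) and with DESeq2 (0.155). By comparison mrp11, the third gene of this region, stood at 0.041 with rapamycin (adjusted p = 0.519). The bL33m gene mrpl39 had 35.2 and 35.3 FPKM with rapamycin, the largest decrease among the 8 (log2 fold change -0.29, adjusted p = 0.0155), with the untreated values given above.

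The other decreases with rapamycin were of similar size. The mL59 gene mrpl25 had 74.1 and 72.3 FPKM with rapamycin, against 83.2 and 84.2 FPKM in untreated cells (log2 fold change -0.19, adjusted p = 0.0158). With rapalink-1 it had 73.8 and 71.2 FPKM, and the libraries of the 2 drugs overlapped. The gene mrps18, described as S18, had 30.6 and 31 FPKM with rapamycin, against 35.6 and 35.1 FPKM in untreated cells (log2 fold change -0.19, adjusted p = 0.029). The bL27m gene mrp7, whose protein lies near the peptidyl transferase centre, had 42.9 and 43.7 FPKM with rapamycin, against 48.9 and 49.1 FPKM in untreated cells (log2 fold change -0.17, adjusted p = 0.0297). With rapalink-1 it had 48.8 and 50.3 FPKM (0.016, adjusted p = 0.784). The remaining 2 were mrpl40 (uL24m) at -0.15 (adjusted p = 0.0354) and nam9 (uS4m) at -0.15 (adjusted p = 0.0284), both named after their values were seen. These calls were fragile. Without the second rapamycin library 0 of the 8 passed (adjusted p between 0.0574 and 0.222), without the first 2 passed, without the first untreated library 3, and without the second untreated library 1. DESeq2 called 2 of the 8, and limma without an intensity trend also 2.

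Compared directly, rapalink-1 and rapamycin differed for a minority of members. In limma 5 of the 64 were higher with rapalink-1 (7.81%) and 6 were lower (9.38%), against 19.6% higher, 17.6% lower and 37.2% in either direction over all genes tested. The median was 0.016, against -0.0048 for all genes, and quantile normalization turned the members' median to -0.016. Under that scaling all genes split into 790 higher and 1113 lower, against 952 higher and 852 lower, with a median of -0.038. The gene tam9 had 157 and 178 FPKM with rapalink-1, against 138 and 127 FPKM with rapamycin (log2 fold change 0.33, adjusted p = 0.0119), and mrpl38 had 109 and 109 FPKM, against 95.4 and 82.5 FPKM (0.29, adjusted p = 0.00665). For both genes the libraries of the 2 drugs were separate.

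The other 3 members higher with rapalink-1 than with rapamycin had smaller differences. The gene mrp7 had 48.8 and 50.3 FPKM, against 42.9 and 43.7 FPKM with rapamycin (log2 fold change 0.19, adjusted p = 0.01). The uS19m gene rsm19 had 54.4 and 56 FPKM, against 49.1 and 48.4 FPKM (0.18, adjusted p = 0.012), and the uL1m gene mrpl1, of the stalk beside the tRNA exit site, 83.9 and 82.9 FPKM, against 75.4 and 74.7 FPKM (0.15, adjusted p = 0.0161). Untreated cells had 48.9 and 49.1 FPKM for mrp7, within the rapalink-1 libraries. For rsm19 (52.3 and 52.1 FPKM) and mrpl1 (80.4 and 82.6 FPKM) they lay between the drugs. The model of rsm19 was overlapped over 41.8%. DESeq2 made none of these 3 calls (adjusted p = 0.0544 for mrp7, 0.0808 for rsm19 and 0.101 for mrpl1).

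The 6 decreases relative to rapamycin were led by SPAC3A12.19, at -0.55 (SE 0.066, adjusted p = 0.000354), a change of -31.8%. It was followed by mrpl20 (16.2 and 18.8 FPKM, against 21.5 and 23 FPKM, log2 fold change -0.33, adjusted p = 0.0211). Smaller decreases were -0.18 for mrpl24 (bL28m, adjusted p = 0.0497), -0.17 for rsm18 (adjusted p = 0.00902) and -0.13 for mrpl10 (uL15m, adjusted p = 0.0404). The call of mrpl24 was lost in 9 of 17 alternatives (adjusted p up to 0.255), among them the replicate block (0.0527), the fit of only the 2 conditions (0.0716) and no filter on low values (0.078). That of mrpl10 was lost in 7 of 17 (up to 0.226). DESeq2 lost 5 of the 11 calls. Leaving out single libraries ended many of them. Without the first rapamycin library 7 of the 11 were lost and without the second 7, without the first rapalink-1 library 5, and without the second 3. The counts were then 2 higher and 2 lower, 3 and 2, 4 and 2, and 7 and 4 in the same order of libraries. The calls of SPAC3A12.19 and mrpl38 held under all 17 alternatives run for them.

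The median changes of large and small subunit genes are given side by side. With rapalink-1 over untreated cells 14 of 40 large subunit genes fell (35%) and 4 rose (10%), with a median of -0.091. Of 22 small subunit genes 5 fell (22.7%), with a median of -0.075. Over all genes tested, 23.1% fell and 24.3% rose. With rapamycin 6 large (15%) and 2 small subunit genes (9.09%) fell, with medians of -0.081 and -0.073, beside 8.00% of all genes. Between rapalink-1 and rapamycin the large subunit had 4 higher and 5 lower (median -0.0025) and the small subunit 1 higher and 1 lower (median 0.031). Over all genes 19.6% were higher and 17.6% lower there. The large minus small difference of the medians was -0.016 for rapalink-1 over untreated, -0.0082 for rapamycin over untreated and -0.033 for rapalink-1 over rapamycin, with an SD of 0.015 between replicate libraries. It was given without a test, since genes of a complex are not replicates and 2 against 2 libraries are too few for a permutation test to pass. The sign turned with assignment by description alone (0.013, 0.028 and 0.0075), and with quantile normalization (0.0055, 0.0042 and 0.0093). Without the first untreated library it was 0.027 for rapalink-1 and 0.02 for rapamycin over untreated. Among members overlapped over at most 10% the differences were -0.06, -0.031 and -0.061. RefSeq names both members described as L51-b, mrp51 and mug178, as the small subunit protein bS1m. With RefSeq subunits the differences were -0.044 for rapalink-1 over untreated and -0.031 for rapamycin over untreated.

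Of the members described as L2, L3, L4, L12, S5, S7 or S12, 6 were tested and 3 fell with rapalink-1, beside 23.1% of all genes tested. Among the 3 was mrpl12, given above. The uL2m gene rml2, close to the peptidyl transferase centre, had 70.9 and 71.6 FPKM with rapalink-1, 73.7 and 72.2 FPKM with rapamycin, and 73.6 and 73.7 FPKM in untreated cells. Its log2 fold change with rapalink-1 was -0.047 with a 95% interval of -0.14 to 0.042 (adjusted p = 0.349). The decoding-site gene mrps12 (uS12m) had 66 and 68.3 FPKM, 63.2 and 60.2 FPKM, and 70.4 and 65.3 FPKM in the same order of conditions, and its change with rapalink-1 was -0.014 with an interval of -0.13 to 0.10. The head protein gene rsm7 (uS7m) stood at -0.027 with rapalink-1, with an interval of -0.12 to 0.066, and at -0.12 with rapamycin (adjusted p = 0.0693). The uS5m gene mrp5 fell with rapalink-1, with 55 and 53.3 FPKM, against 60.9 and 58.8 FPKM in untreated cells (log2 fold change -0.14, adjusted p = 0.0263). Its call was lost with DESeq2 (adjusted p = 0.137), in the fit of only the 2 conditions (0.0516), and without the second rapalink-1 (0.0994), the first untreated (0.135), the first rapamycin (0.0526) or the second rapamycin library (0.0508). The gene mrpl3, described as L3 but named mL44 by RefSeq, had 77.8 and 75.8 FPKM with rapalink-1, against 85.7 and 88.1 FPKM in untreated cells (-0.18, adjusted p = 0.007), a call that DESeq2 did not make (adjusted p = 0.0543). RefSeq gives the name uL3m to mrpl9, a gene named here after its values were seen. It had 33.5 and 34.2 FPKM with rapalink-1, against 32.5 and 33.1 FPKM in untreated cells (log2 fold change 0.044, limma adjusted p = 0.5). The model of mrpl9 was overlapped over 58.5%. The L4 member, mrpl4 (uL29m in RefSeq), was at 0 in every library.

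Across the genome, members were scattered. Only mrps12 and mrpl28 were direct neighbours with no other protein-coding model between them, on opposite strands of chromosome I with 637 bases between their models. Their log2 fold changes were -0.014 and -0.094 for rapalink-1 over untreated cells and -0.13 and -0.026 for rapamycin over untreated cells, and neither gene passed in the fit of all 4847 genes. With rapalink-1 mrpl28 passed under quantile normalization (adjusted p = 0.0478) and without the first rapalink-1 library (0.0349).

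The cytosolic ribosomal protein genes and the respiratory chain genes are set beside the members here. In limma 23.1% of all genes tested fell and 24.3% rose with rapalink-1, and with rapamycin 8.00% fell and 10.2% rose. For rapalink-1 relative to rapamycin, 17.6% were lower and 19.6% higher. Of 107 tested cytosolic ribosomal protein genes, 97 fell with rapalink-1 (90.7%, median -0.31) and 25 with rapamycin (23.4%, median -0.17). With rapamycin edgeR called 42 lower and DESeq2 62, against 413 and 331 of all 4847 genes. The median difference from untreated cells was -0.10 in the first rapamycin library and -0.24 in the second. In rapalink-1 relative to rapamycin 33 fell by limma (30.8%, median -0.13), 47 by edgeR and 52 by DESeq2. Of all genes, edgeR called 959 lower there and DESeq2 760. The members' medians were -0.078, -0.079 and 0.016 in these comparisons. Of all reads, the members took 0.532% and 0.53% with rapalink-1, 0.548% and 0.554% with rapamycin, and 0.56% and 0.56% in untreated cells. The cytosolic ribosomal protein genes took 15.6% and 15.9%, 18.3% and 17.2%, and 19.4% and 19% in the same order of conditions. Nuclear genes for the respiratory chain and ATP synthase included 23 of 34 that rose with rapalink-1 (67.6%, median 0.19). Relative to rapamycin 25 were higher (73.5%) and 1 was lower (2.94%), with a median of 0.27. With rapamycin 6 of these 34 fell (17.6%, median -0.06). No test between the lists was made, and the values stand side by side.

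**Figure D4:**
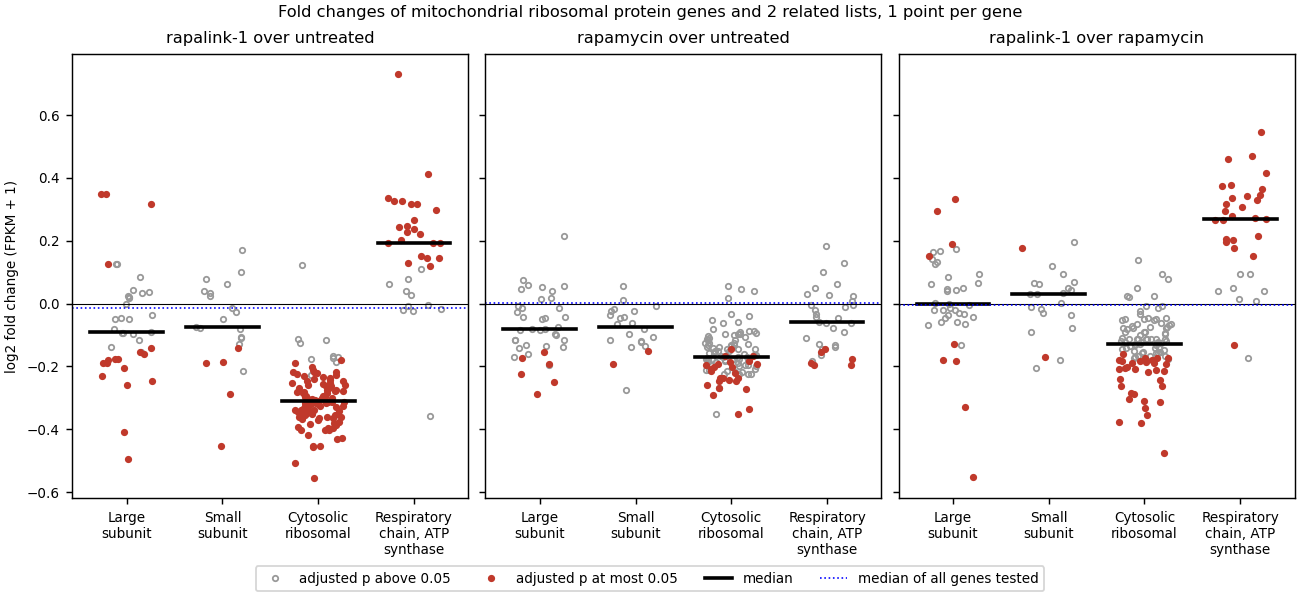
Log2 fold changes of FPKM + 1 in the 3 comparisons, 1 point per gene, for the large and small subunit, the cytosolic ribosomal protein genes and the nuclear genes of the respiratory chain and ATP synthase, with filled points past an adjusted p of 0.05 and bars at the medians. With rapalink-1 over untreated cells the medians are -0.091, -0.075, -0.31 and 0.19.

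Other genes of mitochondrial gene expression passed in both directions. Over all genes tested, 23.1% fell and 24.3% rose with rapalink-1, and 8.00% fell and 10.2% rose with rapamycin. Of 13 tested mitochondrial translation factors, 5 fell (38.5%) and 1 rose with rapalink-1 (median -0.084), and 2 fell with rapamycin (15.4%). Of 15 tested mitochondrial tRNA ligases, 4 fell (26.7%) and 2 rose with rapalink-1 (median -0.12), and 2 fell with rapamycin (13.3%). Of 20 tested genes of mitochondrial protein import, 10 fell (50%) and 2 rose with rapalink-1 (median -0.13). With rapamycin 5 of these fell (25%) and 1 rose. Among all 205 tested genes described as mitochondrial other than the members, 44 rose (21.5%) and 54 fell (26.3%) with rapalink-1 (median -0.036). These 205 include genes of the lists above. The mitochondrially encoded ribosomal protein gene var1 had 3 and 6 reads with rapalink-1, 5 and 6 with rapamycin, and 1 and 2 in untreated cells, too few to compare in polyadenylated RNA.

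Reads assigned to genes came to between 16527483 and 26321118 per library. Replicates differed beyond counting error: chi-square divided by its degrees of freedom was 7.56 for rapalink-1, 9.23 for rapamycin and 5.18 for untreated libraries. The mating-type M genes mfm1, mfm2 and mam2 were detected in these h- cells, mfm3 was at 0, and their summed level was 413 and 375 FPKM with rapalink-1, 107 and 98.4 FPKM with rapamycin, and 78.7 and 82 FPKM in untreated cells. The P-cell genes map2 and map3 summed to between 4.68 and 6.37 FPKM. The 4 meiosis and spore genes summed to 43.3 and 40 FPKM with rapalink-1, 26 and 25.3 FPKM with rapamycin, and 18.7 and 23 FPKM in untreated cells. Of these, mei2 had 23.1 and 21 FPKM, 3.46 and 3.16 FPKM, and 1.71 and 2.01 FPKM in the same order of conditions. By contrast isp3 had 16.5 and 15.4 FPKM, 20 and 18.2 FPKM, and 14.7 and 18.2 FPKM. Only 1 of the 3 tested meiosis and spore genes passed with rapalink-1 over untreated cells. Whether these differences play a part in the members' changes was not tested.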

How the data were processed

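Polyadenylated RNA of 6 libraries, 2 per condition, was sequenced as paired-end reads. The authors deposited FPKM for 7268 genes, normalized to gene model length and library size, and 3 tables of comparisons with read counts for genes with p-values under 0.05. Those tables also hold the authors' own fold changes and p-values, which were not used. The submitters' processing notes name HISAT2 2.0.5, StringTie 1.3.3b, featureCounts 1.5.0-p3 and DESeq2. The genome build, the annotation release and the strand setting are not given in the sources used here. Coordinates of members are those of the deposited annotation, and sequences and protein names come from RefSeq ASM294v3, in which all 74 members were found.

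Reads recovered from FPKM were whole for 100% of values in every library and equalled the deposited counts. The tests used limma 3.58.1 in R 4.3.3 on log2(FPKM + 1) after median-of-ratios scaling, with genes of a mean of at least 1 FPKM, all 6 libraries in 1 fit, a mean per condition, an intensity trend and Benjamini-Hochberg adjustment over 4847 genes (threshold 0.05). Fold changes on this scale understate changes of low genes. The procedure was tested on simulated data. Alternatives were other scalings, pseudocounts and filters, the replicate number as a block, edgeR 4.0.16 and DESeq2 1.42.0 on recovered reads, and each library left out. Named members were, per comparison, up to 6 increases and 6 decreases past the threshold with separate libraries, the 3 highest and 3 lowest by mean FPKM, and those described as L2, L3, L4, L12, S5, S7 or S12. Members and lists were chosen with earlier results of these data known. The list for ribosome assembly matched 0 genes, and protein sequences were not compared. Values of 1 named member are not reported here.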

Additional observations from a re-analysis of the deposited data

How the results depend on the processing

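The members' median stayed below 0 with both drugs over untreated cells under each alternative, and no call of a named member changed direction. For rapalink-1 over untreated cells, quantile normalization gave 29 lower, a median of -0.13 and a large minus small difference of 0.0055, DESeq2 gave 10 lower, and the difference was 0.013 by description alone and -0.044 with RefSeq subunits. Members overlapped over at most 10%, an alternative added after seeing the data like RefSeq subunits and 5 further RefSeq members, gave 2 higher, 10 lower, a median of -0.047 and a difference of -0.06. Leaving out single libraries gave 2 to 5 higher, 12 to 17 lower, medians of -0.079 to -0.064 and differences of -0.044 to 0.027. For rapamycin over untreated cells, quantile normalization gave a median of -0.088, no intensity trend 2 lower and DESeq2 2 lower. SPCC777.17c made 1 higher with a mean of at least 10 FPKM, with only the 2 conditions and with protein-coding genes only. The difference was 0.028 by description and -0.031 with RefSeq subunits, and members overlapped over at most 10% gave 5 lower and -0.031. Leaving out single libraries gave 0 to 1 higher, 0 to 10 lower, medians of -0.094 to -0.071 and differences of -0.0082 to 0.02. For rapalink-1 over rapamycin, quantile normalization gave a median of -0.016 and a difference of 0.0093, no filter 3 lower and a median of 0.0032, DESeq2 2 higher, description alone 0.0075, members overlapped over at most 10% a median of 0.042 and a difference of -0.061, and 5 further members a median of 0.0025. Leaving out single libraries gave 2 to 7 higher, 2 to 5 lower, medians of -0.0016 to 0.021 and differences of -0.033 to 0.01. The causes were not tested.

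Replicate numbers did not pair the libraries (correlation of deviations 0.04, 0.00 and -0.01). With the replicate block, 4 members were higher and 20 lower for rapalink-1 over untreated, 0 and 8 for rapamycin over untreated, and 5 and 5 for rapalink-1 over rapamycin. For named members, 1112 of 1221 alternative values kept their side of the threshold, 97 no longer passed and 12 passed anew. The 1221 include values of results that had not passed and so could not be lost, so this share overstates how firm the calls were. Of the 23, 8 and 11 calls among all members in the 3 comparisons, DESeq2 lost 10, 6 and 5, and edgeR lost 1 in each. Sign changed for 22 values, none past the threshold (lowest adjusted p = 0.517). With 2 libraries per condition, small changes and low or overlapped members were least certain.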
